A study of Mus musculus with 6 samples.

Results

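The genes of the Hedgehog pathway were examined in postnatal day 21 (P21) mouse retinae that lacked Rb1 and p107, with and without Hells. The 8 genes were the ligand Shh, the receptors Ptch1 and Smo, the inhibitors Hhip and Sufu, and the transcription factors Gli1, Gli2 and Gli3, and they were found by an exact match of their symbols among the 24062 genes of the count table. RNA-seq libraries were available from 3 Chx10-Cre Rb1/p107/Hells retinae (TKO, with floxed Rb1 and floxed Hells alleles and a germline deletion of p107) and from 3 Chx10-Cre Rb1/p107 retinae (DKO, with floxed Rb1 alleles and the same p107 deletion), all labelled C57BL/6 and, by the study's methods, kept as C57BL/6N. Both groups therefore carried Chx10-Cre and lost Rb1 and p107, and the comparison of TKO with DKO retinae addressed what is added by the loss of Hells, which encodes a chromatin remodeler. Chx10-Cre acts in retinal progenitor cells in a mosaic pattern, so that a whole retina holds recombined cells beside cells that kept their floxed alleles. No retina with intact Rb1 and p107 was among these libraries.

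In the Hedgehog pathway, a secreted ligand binds the receptor Patched 1 (Ptch1), which otherwise keeps the transducer Smoothened (Smo) inactive at the primary cilium. Active Smoothened releases the GLI proteins from Suppressor of Fused (Sufu), and GLI2 and GLI3, whose processed forms act as repressors, then work as activators. Gli1, Ptch1 and Hhip are standard transcriptional targets, and of these Ptch1 and Hhip feed back as inhibitors. In the developing mouse retina Sonic hedgehog comes from ganglion cells and sustains the division of progenitor cells, and the pathway is also known to act on Muller glia and astrocytes.

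The counts summed to between 10343907 and 14203098 per library. The labels do not say whether the retinae came from separate animals or litters, so that p-values measure only the spread between these retinae. Hells, conditionally deleted in the TKO, was 7.50-fold lower there (edgeR, log2 fold change, log2FC, of -2.91 with a standard error, SE, of 0.225 and adjusted p = 0.00359), and its TKO and DKO retinae did not overlap. The study's floxed Hells allele targets part of the gene, while the counts cover all of it. How much of the fall in Hells came from the deletion was not tested. Rb1 itself, floxed in both groups, had a log2FC of 0.34 (edgeR adjusted p = 0.0388, from 0.0747 to 0.129 in the 5 fits that left out a DKO retina, TKO replicate 1 or TKO replicate 2, and 0.176 with total counts alone), and Rbl1, which encodes p107 and is deleted in both, had 0.13 (edgeR adjusted p = 0.839). Rod markers marked the tissue as retina, and all 10 were detected and higher in TKO retinae. Expression was given as normalized counts, that is, counts scaled by the TMM method to the mean library size. A gene was called when the quasi-likelihood test of edgeR gave it a p of at most 0.05 after Benjamini-Hochberg adjustment over 16904 genes.

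Gli1, Gli3 and Smo fell and Ptch1 rose in TKO retinae, while Shh, Sufu, Hhip and Gli2 did not pass the test. All 8 genes were tested, and 3 of the 8 were called lower and 1 was called higher, where 16.6% of all genes tested were called, 9.2% as lower and 7.35% as higher. In 4 of the 8 genes no TKO retina fell within the DKO range or the reverse, against 38.6% of all genes tested. Gli1 and Gli3 also met the 3 criteria that add a log2FC of 1 or more in size and a mean of 10 or more counts scaled by DESeq2's size factors, which 6.35% of all genes met, 4.38% as lower and 1.97% as higher. The median log2FC of the 8 genes was -0.66, and that of all genes tested was -0.011. In whole retinae, fewer cells that express a gene and less of its RNA per cell cannot be told apart.

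**Figure D1:**
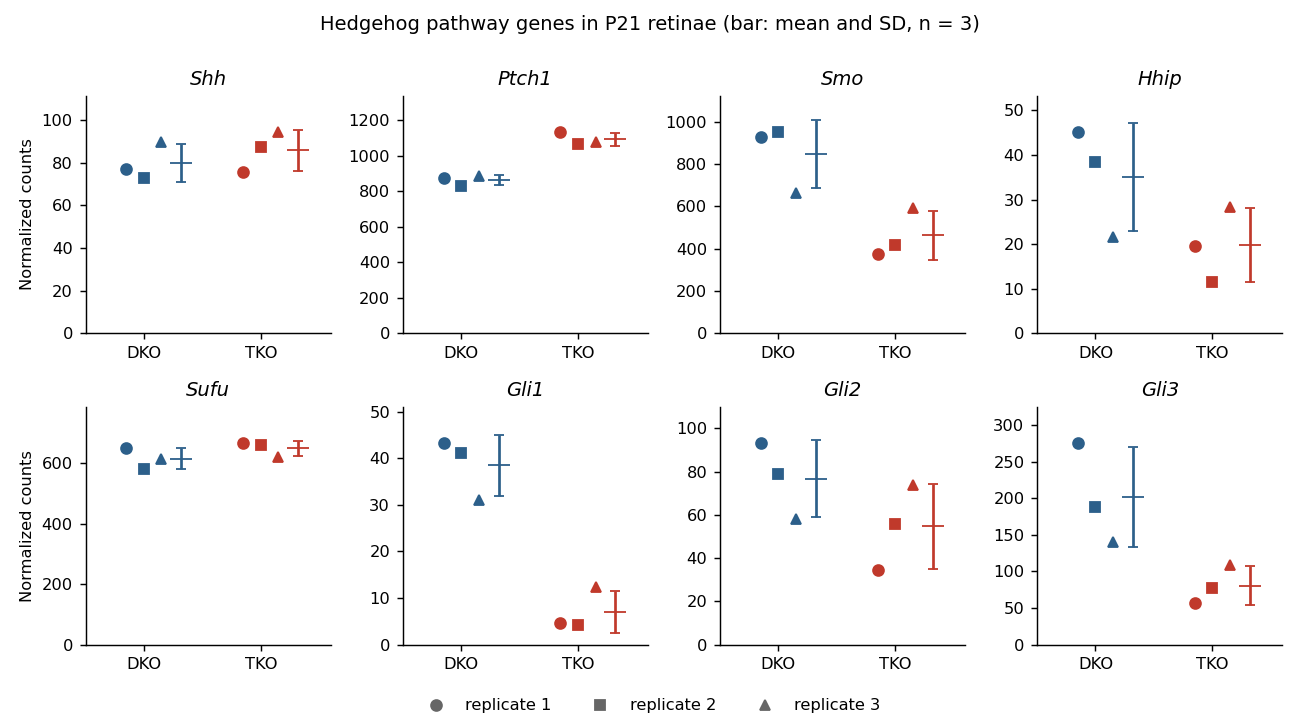
Normalized counts of the 8 Hedgehog genes (vertical axes, each from 0) in DKO (blue) and TKO (red) retinae, with a symbol for each replicate and the mean and SD (n = 3) beside the points. Gli1, Gli3 and Smo are lower and Ptch1 is higher in each TKO retina than in each DKO retina, and the other genes overlap.

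Gli1, the transcriptional activator that is itself a target of the pathway, changed most among the 8 genes. It had 43.3, 41.1 and 31.1 normalized counts in DKO replicates 1, 2 and 3 and 4.59, 4.21 and 12.3 in TKO replicates 1, 2 and 3. Each TKO retina was thus below each DKO retina, and TKO replicate 3 was the highest of its group while DKO replicate 3 was the lowest of its own. TKO retinae averaged 7.02 ± 4.55 and DKO retinae 38.5 ± 6.52 (SD, n = 3 each), with a log2FC of -2.46 (SE 0.428, edgeR adjusted p = 0.0103), which is 5.50-fold lower. The gene was sparse, with 4, 4 and 10 raw counts in the TKO libraries. When each retina was left out in turn, the log2FC of Gli1 ran from -3.09, without TKO replicate 3, to -2.19, without TKO replicate 2, and its adjusted p was at most 0.0490 from edgeR. On GRCm38, Gli1 spans 127329882 to 127341974 of chromosome 10 on the minus strand, where the annotated Arhgap9 overlaps it on the plus strand. Arhgap9 had 9, 1 and 4 counts in TKO and 16, 22 and 14 counts in DKO replicates 1, 2 and 3 (edgeR adjusted p = 0.122), and reads from the overlap cannot be told apart unless the counting used strand.

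Gli3, whose processed form is the main GLI repressor, fell as well. It had 276, 188 and 141 normalized counts in DKO replicates 1, 2 and 3, and 56.2, 76.8 and 109 in TKO replicates 1, 2 and 3. The groups did not overlap, with the narrowest gap between the replicates numbered 3. TKO retinae averaged 80.8 ± 26.7 and DKO retinae 202 ± 68.5 (SD, n = 3 each), with a log2FC of -1.32 (SE 0.306, edgeR adjusted p = 0.0235). Leaving out TKO replicate 1 or 2 gave Gli3 an edgeR adjusted p of 0.0708 or 0.0911, and leaving out DKO replicate 1 or 2 gave 0.0821 or 0.0740, and its log2FC stayed between -1.59 and -1.03 over the 6 fits that each left out a retina. Gli3 lies on the plus strand of chromosome 13 from 15463235 to 15730026, and Gli2 on the minus strand of chromosome 1 from 118834132 to 119053619.

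Gli2, regarded as the main activator of the primary response, did not pass the test. Its normalized counts were 93.2, 78.8 and 57.8 in DKO replicates 1, 2 and 3, and 34.4, 55.8 and 73.6 in TKO replicates 1, 2 and 3. TKO replicate 3 lay above DKO replicate 3, so the groups overlapped. The log2FC of Gli2 was -0.49 (SE 0.307, edgeR adjusted p = 0.302). Without the replicates numbered 3 of both groups it was -0.91 (edgeR adjusted p = 0.0450). That alternative was chosen after the data had been seen.

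The receptor genes moved in opposite directions. Smo, which encodes the signal transducer, had 926, 953 and 661 normalized counts in DKO replicates 1, 2 and 3 and 376, 418 and 594 in TKO replicates 1, 2 and 3. The groups did not overlap. TKO retinae averaged 463 ± 116 and DKO retinae 847 ± 161 (SD, n = 3 each), with a log2FC of -0.87 (SE 0.196, edgeR adjusted p = 0.0214), which is 1.83-fold lower. Leaving out TKO replicate 1 or 2 gave Smo an edgeR adjusted p of 0.0678 or 0.0897, and leaving out DKO replicate 1 or 2 gave 0.0776 or 0.0854, with log2FC from -1.09 to -0.75 over the 6 such fits. Smo spans 29735503 to 29761365 of chromosome 6 on the plus strand, and Ptch1 spans 63508328 to 63573598 of chromosome 13 on the minus strand.

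Ptch1, the ligand receptor, target and feedback inhibitor, had 877, 829 and 886 normalized counts in DKO replicates 1, 2 and 3 and 1135, 1066 and 1076 in TKO replicates 1, 2 and 3. The spread within either group was small, and each TKO retina exceeded each DKO retina. TKO retinae averaged 1093 ± 37.3 and DKO retinae 864 ± 30.6 (SD, n = 3 each), with a log2FC of 0.34 (SE 0.0730, edgeR adjusted p = 0.0187), which is 1.26-fold higher. Ptch1 was called with TMM, DESeq2 and upper-quartile scaling, but with scaling by total counts alone its log2FC was 0.18 (edgeR adjusted p = 0.123). Under such a scaling all genes had a median log2FC of -0.17 in place of -0.011. A change of scaling moves all genes by nearly the same amount, so the place of Ptch1 relative to that median cannot decide between the scalings. Leaving out TKO replicate 1 or 2 gave Ptch1 an edgeR adjusted p of 0.0663 or 0.0644, and leaving out DKO replicate 1 or 2 gave 0.0574 or 0.0854.

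The start regions of the receptor genes are shown because these genes moved in opposite directions, and because HELLS is known for its part in DNA methylation. The 250 bases before the start site of each gene, from RefSeq on GRCm38.p6, are written 5′ to 3′ on the gene's own strand, with CpG dinucleotides in capitals. That of Ptch1 is chr13:63565736-63565985 on the minus strand, which lies inside the annotated span of the gene, and that of Smo is chr6:29735247-29735496 on the plus strand, just upstream of its annotated start.
Ptch1: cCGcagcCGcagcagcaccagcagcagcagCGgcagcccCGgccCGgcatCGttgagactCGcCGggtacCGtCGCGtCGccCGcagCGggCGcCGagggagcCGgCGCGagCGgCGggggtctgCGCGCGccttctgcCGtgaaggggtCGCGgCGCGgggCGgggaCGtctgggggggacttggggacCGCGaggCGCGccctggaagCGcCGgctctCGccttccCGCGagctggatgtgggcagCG
Smo: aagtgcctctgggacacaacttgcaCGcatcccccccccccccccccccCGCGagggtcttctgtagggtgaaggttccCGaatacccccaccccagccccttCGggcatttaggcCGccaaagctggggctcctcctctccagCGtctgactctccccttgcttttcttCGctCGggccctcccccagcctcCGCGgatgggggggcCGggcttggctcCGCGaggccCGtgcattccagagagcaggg
The Ptch1 window held 41 CpG dinucleotides and the Smo window held 15, where the median of 32851 such windows was 6. The other windows found held 34 CpG in Gli3, 28 in Hhip, 22 in Gli2 and 8 in Sufu, and none was found for Shh and Gli1. DNA methylation was not measured in these libraries. The study's dot blot for methylated cytosine found no change in global levels between TKO, DKO and Cre-negative P21 retinae. A dot blot does not resolve single genes. The study also found few regions with changed chromatin accessibility in TKO against DKO cells. The GLI consensus GACCACCCA was searched on both strands and was found in 0 of these 6 windows and in 0.225% of all windows. The E2F letters TTTCCCGC, TTTCGCGC, TTTGCCGC and TTTGGCGC, also on both strands, were found in 0 of the 6 windows and in 1.86% of all windows. With such low shares, 0 of 6 was the likely outcome for any windows. These searches therefore cannot decide whether GLI or E2F proteins bind these genes.

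Shh, the ligand, had 77.2, 72.7 and 89.8 normalized counts in DKO replicates 1, 2 and 3 and 75.7, 87.4 and 94.5 in TKO replicates 1, 2 and 3. The groups overlapped throughout, and the log2FC was 0.10 (SE 0.183, edgeR adjusted p = 0.734). Shh lies on the minus strand of chromosome 5 from 28456815 to 28467256 and is overlapped by the antisense gene 9530036O11Rik, which had 10 to 26 counts per library. Markers of ganglion cells, the known source of Shh in the retina, were detected for all 11 genes of the list. Among all genes tested, 7.35% were called higher and 9.2% lower. Of the 11 ganglion cell markers, Nefh was called higher and 0 were called lower, with a median log2FC of 0.18. Of the 3 most abundant of these, the neurofilament genes Nefl and Nefm had log2FC of 0.22 and 0.20 and the surface glycoprotein gene Thy1 had 0.18, and none of the 3 passed the test (edgeR adjusted p from 0.253 to 0.362).

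Sufu, which binds GLI proteins and restrains them, had 650, 580 and 614 normalized counts in DKO replicates 1, 2 and 3 and 666, 660 and 620 in TKO replicates 1, 2 and 3. With a log2FC of 0.078 (SE 0.0837, edgeR adjusted p = 0.554), a difference was not detectable. Hhip, which encodes a membrane protein that binds the ligand away from its receptor, had 45.2, 38.5 and 21.6 normalized counts in DKO and 19.5, 11.6 and 28.2 in TKO replicates 1, 2 and 3. The value of DKO replicate 3 lay inside the TKO range. Hhip had a log2FC of -0.83 (SE 0.409, edgeR adjusted p = 0.193), and it was -1.42 without the replicates numbered 3 of both groups (edgeR adjusted p = 0.0228). The signs of Shh and Sufu, both near 0, turned to -0.049 and -0.081 when libraries were scaled by total counts alone. Sufu spans 46396896 to 46488804 of chromosome 19 on the plus strand, and Hhip spans 79965851 to 80058006 of chromosome 8 on the minus strand.

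Levels of different genes were compared as counts per 1000000 counts (CPM) per kilobase of merged exon. Merged exons join all annotated transcripts, so this length can exceed that of a single transcript, and the order depends on it. It was 14185 bases for Ptch1 and 5621 for Smo, whose mean normalized counts in DKO retinae were 864 and 847. In DKO retinae Smo stood first at 11.9 on this scale, followed by Sufu at 6.32, Ptch1 at 4.82, Shh at 2.22, Gli3 at 1.66, Gli2 at 0.882, Gli1 at 0.610 and Hhip at 0.306. Shh and Gli3 overlapped in the DKO retinae, as did Gli2 and Gli1, and the other neighbours did not. In TKO retinae the level per length of Sufu was 6.67, that of Smo 6.51 and that of Ptch1 6.09, where Sufu and Smo overlapped and so did Smo and Ptch1. Shh followed at 2.38, Gli3 at 0.666, Gli2 at 0.628, Hhip at 0.172 and Gli1 at 0.111. Gli3 and Gli2 overlapped in the TKO retinae, as did Hhip and Gli1. In these levels Gli1 stood above Hhip in DKO retinae without overlap, and Gli1 was the lowest of the 8 genes in TKO retinae.

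**Figure D2:**
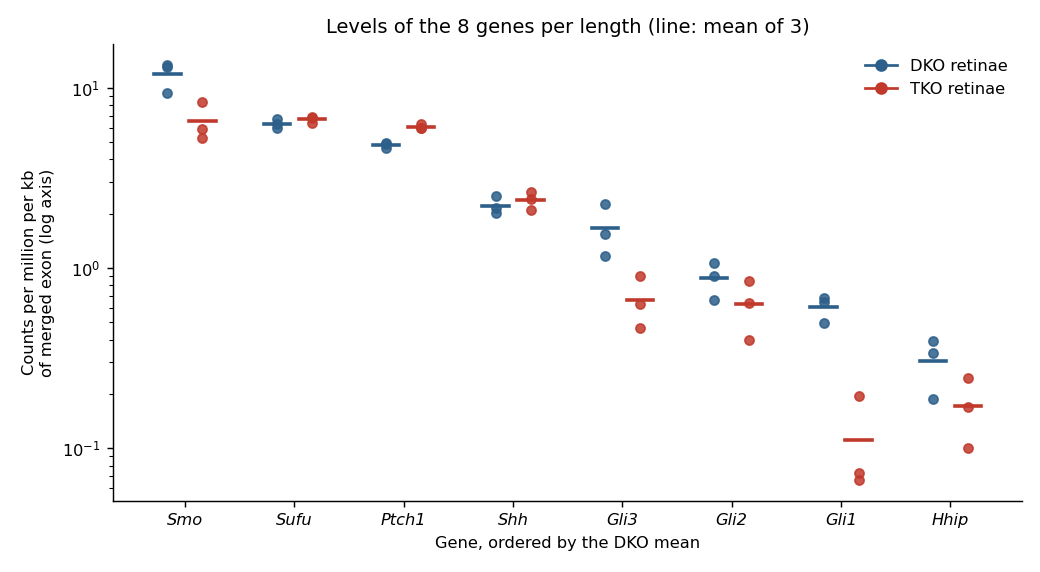
Levels of the 8 genes as CPM per kilobase of merged exon (vertical log axis) in DKO (blue) and TKO (red) retinae, with 1 point per retina and a line at the mean of 3. Smo leads in DKO retinae at 11.9, while the means of Sufu, Smo and Ptch1 lie between 6.09 and 6.67 in TKO retinae.

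Ratios within a library do not depend on how libraries are scaled. The log2 ratio of Gli1 to Gli3 counts was -2.66, -2.18 and -2.16 in DKO replicates 1, 2 and 3 and -3.46, -4.03 and -3.09 in TKO replicates 1, 2 and 3, so that Gli1 counts were lower relative to Gli3 counts in each TKO retina. The difference in this ratio was -1.19 (exact permutation test, two-sided, p = 0.1, the smallest p that 3 against 3 retinae allow), and it was -0.78 with 3 in place of 0.5 added to each count. The log2 ratio of Ptch1 to Smo counts was -0.078, -0.20 and 0.42 in DKO replicates 1, 2 and 3 and 1.59, 1.35 and 0.86 in TKO replicates 1, 2 and 3. The difference in this ratio was 1.22 (exact permutation test, two-sided, p = 0.1). Neither ratio overlapped between the groups, and with 3 retinae a side no single value can reach the threshold of 0.05.

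Beyond the 8 genes, 43 other genes of the pathway were listed by role, and 41 of them had enough counts to be tested. Of the 41 genes, 6 were called lower and 4 higher, where 9.2% of all genes tested were called lower and 7.35% higher, and their median log2FC was -0.21. Of the 6 ligand and release genes tested, 0 were called with edgeR, 2 had an unadjusted p under 0.05 and 1, Dhh, was called with DESeq2. Dhh, which encodes Desert hedgehog, had 33.9, 32.4 and 65.6 normalized counts in DKO and 94.0, 112 and 57.7 in TKO replicates 1, 2 and 3, and its log2FC of 1.00 did not pass the test (adjusted p = 0.0871 from edgeR, 0.0414 from DESeq2). With a retina left out, the log2FC of Dhh ran from 0.79 to 1.41, and it passed in 2 of 6 fits (edgeR adjusted p from 0.0232 to 0.256). Pigment epithelium markers, whose summed level was 15.6, 57.5 and 83.4 CPM in DKO and 97.4, 184 and 59.9 in TKO replicates 1, 2 and 3, put the retinae in the same order as Dhh but for DKO replicates 1 and 2. Of these 8 markers 1, Rpe65, was called higher and none was at 0 in all libraries, and their part in the Dhh values was not tested. Of the most abundant ones, Ttr, Pmel and Rdh5 had log2FC of 1.24, 0.18 and 1.21 (edgeR adjusted p from 0.171 to 0.771), and Rdh5 had an edgeR adjusted p of 0.0404 without DKO replicate 3. Scube1 and Disp1, which serve ligand release, had log2FC of -0.86 and -0.21 (edgeR adjusted p = 0.337 and 0.531), and Scube1 had -0.11 without DKO replicate 3. Ihh had at most 4 counts in a library and was not tested.

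Among the 5 co-receptor genes, Gas1 fell and Lrp2 rose, against 9.2% and 7.35% of all genes. Gas1, which encodes a surface protein that aids ligand binding, had 490, 535 and 539 normalized counts in DKO and 206, 282 and 323 in TKO replicates 1, 2 and 3, with no overlap. Its log2FC was -0.95 (SE 0.157, edgeR adjusted p = 0.00906). Lrp2, which encodes the endocytic receptor megalin, had 197, 172 and 191 normalized counts in DKO and 337, 314 and 303 in TKO replicates 1, 2 and 3, a log2FC of 0.77 (SE 0.114, edgeR adjusted p = 0.00733). Both genes were called in each of the 6 fits that left out a retina. The ligand-binding Cdon, the most abundant gene of this list, had a log2FC of -0.22 (edgeR adjusted p = 0.235).

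Of the 12 genes of the ciliary relay, 2 fell and 1 rose, against 9.2% and 7.35% of all genes. Evc, a partner of Smoothened at the base of the cilium, had a log2FC of -0.63, and Tulp3, which brings receptors into the cilium, had -0.40 (edgeR adjusted p = 0.0486 and 0.0352). Arl13b, a small GTPase of the ciliary membrane, rose with a log2FC of 0.91 (edgeR adjusted p = 0.0136). Photoreceptors also carry a modified cilium, and their part in the Arl13b values was not tested. The abundant Kif3a, a motor subunit, and Grk2, a kinase that acts on Smoothened and is named Adrbk1 in the count table, had log2FC of -0.074 and 0.055 (edgeR adjusted p = 0.549 and 0.621). Of the 10 genes of GLI phosphorylation and turnover, 0 were called lower, while Cul3 (0.42), a ubiquitin ligase scaffold, and Stk36 (0.60), a kinase also named Fused, rose on the log2 scale (edgeR adjusted p = 0.0134 and 0.0416). The most abundant of these 10, the protein kinase A subunit genes Prkar1a and Prkacb and the ligase adaptor gene Spop, had log2FC of -0.030, -0.014 and 0.24 (edgeR adjusted p from 0.0854 to 0.928). Evc, Tulp3, Arl13b, Cul3 and Stk36 all lost the call without TKO replicate 2, and all but Tulp3 without DKO replicate 2. Evc, Tulp3 and Stk36 also lost it without TKO replicate 1, the same 3 genes and Arl13b without DKO replicate 1, and Tulp3 and Stk36 without DKO replicate 3, with adjusted p between 0.0545 and 0.155 from edgeR. Stk36 also lost it with scaling by total counts alone (log2FC of 0.43, edgeR adjusted p = 0.0776), and Tulp3 without the replicates numbered 3 of both groups (edgeR adjusted p = 0.0755).

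Of the 9 candidate target genes, 8 were tested, 3 fell and 0 rose, against 9.2% and 7.35% of all genes. Foxm1, a transcription factor of mitotic entry, fell most (log2FC of -2.48, SE 0.446, adjusted p = 0.0110 from edgeR), followed by the cyclin gene Ccnd2 (-1.41, adjusted p = 0.0101 from edgeR) and the MYC family gene Mycn (-1.18, adjusted p = 0.0122 from edgeR). The groups did not overlap in Foxm1, Ccnd2 or Mycn. All 3 missed the threshold without DKO replicate 2, and Foxm1 and Mycn also without DKO replicate 1 or TKO replicate 2, with adjusted p between 0.0501 and 0.0601 from edgeR. Without TKO replicate 3 the log2FC of Foxm1 was -3.25. Ccnd1, the cyclin gene most often named as a Hedgehog target, had 339, 451 and 421 normalized counts in DKO and 307, 305 and 376 in TKO replicates 1, 2 and 3, which overlapped (log2FC of -0.30, adjusted p = 0.183 from edgeR). Foxm1, Ccnd2 and Mycn are also cell cycle genes, and are controlled by other pathways as well.

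Dividing cell markers moved in the same direction as Gli1, Gli3 and Smo. All 7 of these markers were called lower, against 9.2% of all genes tested, and none was at 0. Their summed level was 34.8 to 149 CPM in TKO and 368 to 820 in DKO retinae. Of the most abundant, Top2a, Mki67 and Cdk1 had log2FC of -3.21, -2.52 and -2.68 (edgeR adjusted p from 0.00780 to 0.0152), of which Mki67 missed the threshold without DKO replicate 1, DKO replicate 2 or TKO replicate 2 (edgeR adjusted p up to 0.0719) and with robust dispersions (edgeR adjusted p = 0.0698). Without TKO replicate 3 the log2FC of Top2a and Mki67 were -3.92 and -3.29. Within each genotype the replicates numbered 3 were nearest the other genotype in these markers, as they were in Gli1, Gli3 and Smo. Progenitor markers had 4 of 7 genes lower, Sox2, Hes5 and Lhx2 among them, and 0 higher, with summed levels of 399 to 451 CPM in TKO and 433 to 497 in DKO retinae, and of the most abundant of these Lhx2 fell (log2FC of -0.68, adjusted p = 0.0440 from edgeR, up to 0.137 without DKO replicate 1, DKO replicate 2 or TKO replicate 2, and 0.0505 with robust dispersions) while Rax (0.41) did not pass the test (edgeR adjusted p = 0.153). The part of dividing or progenitor cells in the values of Gli1, Gli3 and Smo was not tested.

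**Figure D3:**
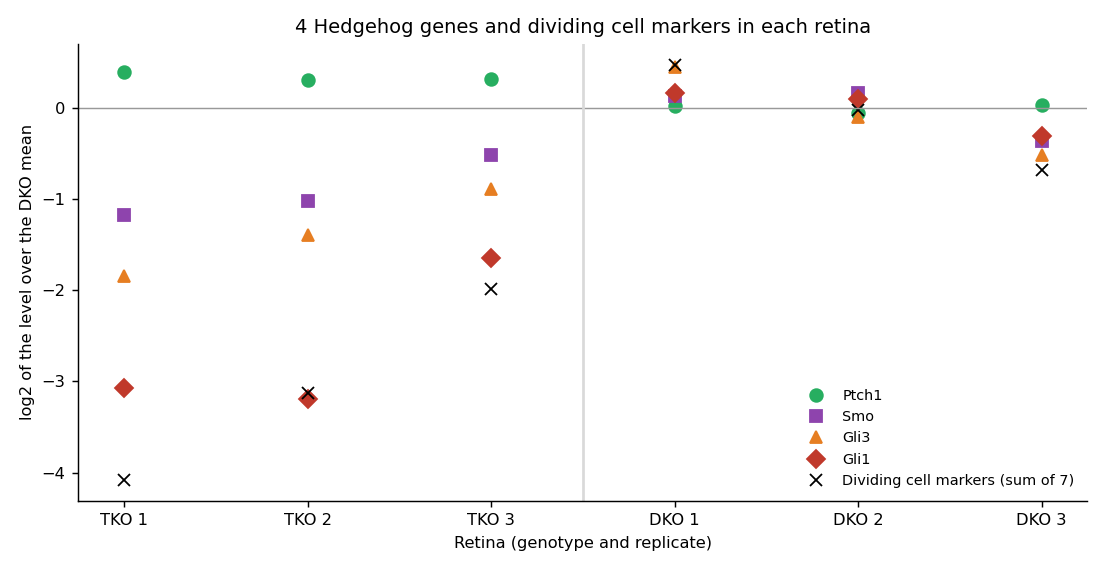
Levels of Ptch1, Smo, Gli3 and Gli1 and the summed level of 7 dividing cell markers in each retina (horizontal axis), as the log2 of the level over the mean of the 3 DKO retinae (vertical axis). Gli1 lies at -3.07, -3.19 and -1.65 in TKO replicates 1, 2 and 3 and the marker sum at -4.08, -3.13 and -1.99, while Ptch1 lies between 0.30 and 0.39 there.

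Other cell type markers were read beside the same genes. Among all genes tested, 7.35% were called higher and 9.2% lower, to be read beside each list here. Of 9 Muller glia markers, 3 were called higher (Glul, Rlbp1 and Kcnj10) and 1 lower (Sox9), with a median log2FC of 0.057. Their summed levels were 6071 to 6298 CPM in TKO and 4370 to 5076 in DKO retinae, none of the 9 at 0. The gap between these sums lies largely in Glul, with 26980 to 34530 normalized counts in TKO and 12910 to 15690 in DKO retinae. Glul, the glutamine synthetase gene of these glia, rose (log2FC of 1.15, adjusted p = 0.00548 from edgeR), while the abundant Dkk3 (-0.061) and Clu (0.057) did not pass the test (edgeR adjusted p = 0.767 and 0.889). Of the 10 rod markers, all were called higher, with summed levels of 29970 to 60520 CPM in TKO and 10170 to 19340 in DKO retinae, and Gnat1 and Sag had log2FC of 1.84 and 1.63 (adjusted p at most 0.0132 from edgeR, and up to 0.0627 without DKO replicate 1, DKO replicate 2 or TKO replicate 2). Rods are the most numerous cells of the mouse retina. The part of the Muller glia and of rods in the values of the 8 genes, Ptch1 included, was not tested. Of 5 astrocyte markers, 0 were called with edgeR, 3 had an unadjusted p under 0.05, and 1, Aldh1l1, was called with DESeq2. Their summed levels were 191 to 380 CPM in TKO and 400 to 999.7 in DKO retinae. These sums mainly follow Gfap, which had 1341 to 3640 normalized counts in TKO and 3948 to 11560 in DKO retinae. No other marker of the list had more than 904 in a retina. Gfap, Pdgfra and Aldh1l1 had log2FC of -1.46, -0.44 and 0.87 (edgeR adjusted p from 0.0566 to 0.154). Each of these 3 genes passed in 1 of the 6 fits that left out a retina (edgeR adjusted p of 0.0329, 0.0498 and 0.00269). The part of astrocytes in the values of the 8 genes was not tested.

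Connective tissue markers stood apart in DKO replicate 1, which had 7788 normalized counts of the collagen gene Col1a1 where the other DKO retinae had 77.0 and 60.4 and the TKO retinae had 18.3 to 41.0. Col1a2 likewise had 8711 normalized counts in DKO replicate 1 and 194 to 1554 in the other 5 retinae. Gli1, which is known as a marker of perivascular mesenchymal cells, had 43.3 normalized counts in DKO replicate 1 and 41.1 in DKO replicate 2, and its log2FC without DKO replicate 1 was -2.37 (edgeR adjusted p = 0.0457). The mural marker Rgs5 had a log2FC of 0.41 (edgeR adjusted p = 0.302). Of the 8 fibroblast and mural markers, 0 were called with edgeR and with DESeq2, and 1 had an unadjusted p under 0.05. DESeq2 gave no adjusted p for Col1a1 and Col1a2, so it could not have called either of them. With edgeR, 16.6% of all genes tested were called. Col1a1 and Col1a2 themselves had log2FC of -6.40 and -2.35 (edgeR adjusted p = 0.0603 and 0.156), which were -1.15 and -0.42 without DKO replicate 1. Col1a1 had an edgeR adjusted p of 0.0205 without DKO replicate 3, 0.0484 with total counts alone and 0.0467 with no filter on low counts, and Col1a2 of 0.0476 without TKO replicate 3. The part of these cells in the Gli1 values was not tested.

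The remaining marker lists were read by their counts, beside 9.2% of all genes called lower and 7.35% called higher. Microglia markers had 5 of 7 genes lower (Aif1, C1qa, C1qb, Csf1r and Cx3cr1), with summed levels of 86.8 to 155 CPM in TKO and 201 to 289 in DKO retinae. Lens markers had 4 of 8 higher (Cryaa, Cryba1, Crybb2 and Crygs), with summed levels of 41.0 to 274 in TKO and 8.33 to 8.58 in DKO retinae. Cone markers had 2 of 8 higher (Arr3 and Opn1sw), bipolar markers 2 of 8 (Cabp5 and Grik1) and endothelial markers 1 of 7 (Pecam1). Of 8 amacrine markers, 0 were called with edgeR, 3 had an unadjusted p under 0.05 and 3 were called with DESeq2. Of 5 horizontal cell markers, 0 were called with edgeR, 2 had an unadjusted p under 0.05 and 1 was called with DESeq2. The part of these cells in the values of the 8 genes was not tested.

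The genes whose log2 levels ran most alike across the 6 retinae were sought among 14975 genes with a mean of 10 or more by DESeq2's size factors, on the log2(CPM + 0.5) scale, as a description over retinae that share their genotype in groups of 3. For Gli1 they were Hap1 (Pearson's r = 0.999), Cenpw (0.998) and Klhl35 (0.998), and 872 genes had an r above 0.95 with Gli1. For Ptch1 they were Bicd2, Cyb561a3 and Rasa2 (r from 0.996 to 0.997), with 466 genes above 0.95. For Hhip they were Col27a1, Psd4 and Cdc7 (r from 0.989 to 0.995), with 99 genes above 0.95. For Shh they were Spns1, Bcr and Tmem180 (r from 0.984 to 0.991), with 16 genes above 0.95.

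**Figure D4:**
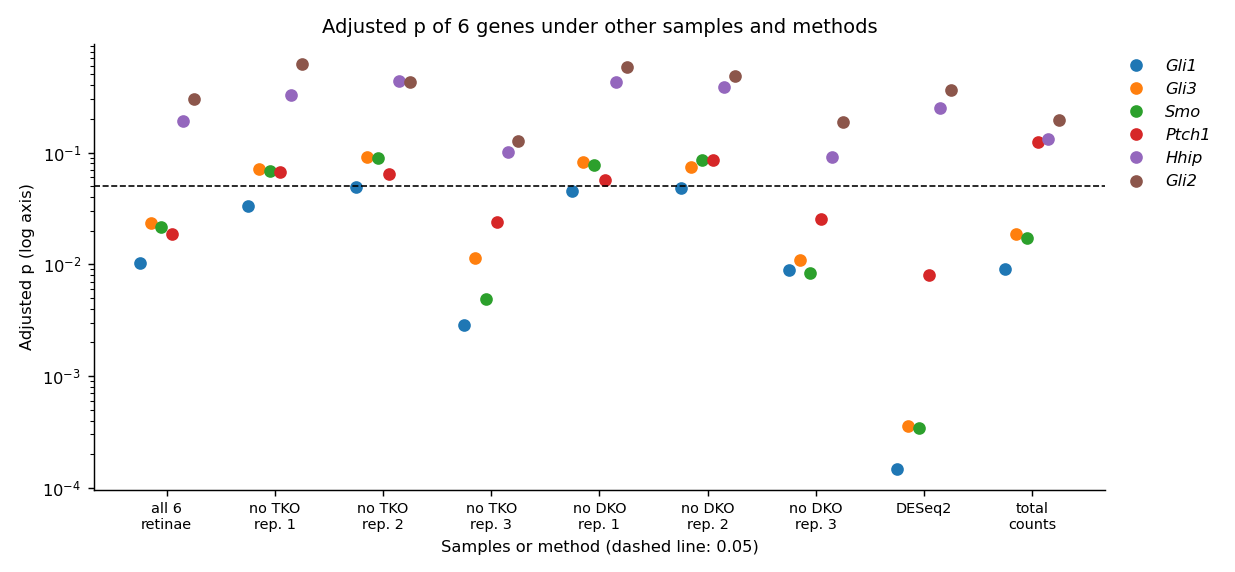
Adjusted p (vertical log axis) of Gli1, Gli3, Smo, Ptch1, Hhip and Gli2 with all 6 retinae, without each retina in turn, with DESeq2 and with scaling by total counts, with the dashed line at 0.05. Gli1 stays at or below 0.0490 in the 6 fits that leave out a retina, and Gli3, Smo and Ptch1 cross the line in 4 of them.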

How the data were processed

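The authors isolated total RNA from P21 retinae, made stranded mRNA libraries and sequenced read pairs. Per the paper's methods the reads were aligned to GRCm38 with STAR and counted on genes with HTSeq, with a limited number of multiple alignments allowed, whereas the submitters' processing notes name TopHat2 and featureCounts with mm10 and GRCm38. The authors deposited raw counts, 1 column per retina, and no strand setting is given in the sources used here. Columns were matched to genotype and replicate through the sample descriptions and titles.

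Genes whose counts summed to under 10 were removed, which left 16904 of 24062 genes. Counts were normalized by TMM and tested with the quasi-likelihood functions of edgeR 4.0.16 (R 4.3.3, no optional settings), and p-values were adjusted by Benjamini-Hochberg over all genes kept. Each standard error was obtained from the F statistic, as the size of the log2FC over the root of F. The procedure was run beforehand on simulated counts of the same size, as a check of the code. Its pass condition was set at a fixed dispersion, not that of these libraries, and no result here rests on it. The printed normalized counts are scaled by TMM, and only the criterion of a mean of at least 10 used DESeq2's size factors. Single ratios were tested with an exact permutation test. Coordinates and merged exon lengths come from GENCODE M21 (GRCm38), and start regions from RefSeq (GRCm38.p6), where 6 of the 8 genes were matched.

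The genes and lists were chosen with earlier results of these data known. Named genes were the 8 members, Hells, Rb1 and Rbl1, each called gene and the 3 most abundant genes of each pathway list, the 3 most abundant genes of each marker list discussed, and the 3 genes most alike to Gli1, Ptch1, Hhip and Shh. Genes outside this rule (Ihh, Arhgap9, 9530036O11Rik and the called genes of marker lists) were named after their values were seen. Marker lists of cones, bipolar, amacrine and horizontal cells, endothelium, microglia and lens were read as counts only. A few genes under this rule are left unreported. Alternatives were DESeq2 1.42.0, 3 other scalings, 2 other filters, robust dispersions, the replicate number as a block, and each retina left out.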

Additional observations from a re-analysis of the deposited data

How the results depend on the processing

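Of the 8 Hedgehog genes, 4 were called with all 6 retinae, and the count was also 4 with DESeq2, other size factors, either filter and robust dispersions. It was 3 with scaling by total counts alone, where Ptch1 lost its call. With each retina left out it ran from 1 to 4: only Gli1 remained without TKO replicate 1, TKO replicate 2, DKO replicate 1 or DKO replicate 2. It was 2 by the 3 criteria and 6 without the replicates numbered 3 of both groups, an alternative chosen after seeing the data. The other pathway genes had 10 calls, which ran from 3 to 15 with a retina left out and were 3 by the 3 criteria. The calls over all genes ran from 647 to 3590 with a retina left out, against 2799, and were 1074 by the 3 criteria and 4663 without the replicates numbered 3. Total counts alone gave 2610 genes lower and 778 higher, against 1556 and 1243.

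Replicate numbers did not pair the retinae (correlations of deviations 0.067, -0.049 and -0.20). With the replicate block, 0 of the 8 genes, 0 of the other pathway genes and 106 of all genes were called, the adjusted p of Gli1 from edgeR was 0.0622, and paired differences of both ratios gave an exact p of 0.25, the smallest possible with 3 pairs. Under that block 4 of the 8 genes and 16 of 41 other pathway genes had an unadjusted p under 0.05 from edgeR.

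With a retina left out, the difference in the log2 ratio of Gli1 to Gli3 ran from -1.41 to -0.94, and that of Ptch1 to Smo from 1.06 to 1.42. Signs turned with total counts alone for Shh (-0.049), Sufu (-0.081), Rbl1 (-0.036), Adrbk1 (-0.10) and Clu (-0.089). They turned in some of the fits that left out a retina, which ran from -0.15 to 0.36 for Rbl1 (-0.0016 without DKO replicate 1), -0.052 to 0.014 for Prkar1a, -0.065 to 0.054 for Prkacb, up to 0.036 for Dkk3, -0.098 to 0.38 for Clu (-0.066, -0.021 and -0.0058 among them) and -0.17 to 0.47 for Pmel (-0.13 among them). None of these genes was called. The cause was not tested. Depth limits Gli1 and Hhip, which had few counts.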
